A study of Mus musculus with 96 samples.

Results

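Regulators of G protein signalling, the RGS proteins, were followed as 8 genes, Rgs2, Rgs4, Rgs7, Rgs8, Rgs10, Rgs14, Rgs16 and Rgs20, out of 22709 genes measured. They were taken by name from a table of normalised read counts, in every library of both tissues. Rgs4 was chosen on its measured level after maternal immune activation (MIA), which was higher than after saline in prefrontal cortex, so its MIA difference in that tissue is described here and not tested. The series measured messenger RNA in whole tissue from mouse hippocampus and prefrontal cortex and asks how PLX5622, an inhibitor of the receptor CSF1R on which microglia depend for survival, bears on outcomes of MIA in each sex. The 96 libraries fall into 16 groups, 8 per tissue: females and males after MIA with the inhibitor, after MIA without it (control), after saline with the inhibitor and after saline without it. Each group held 6 libraries, except that MIA control females had 7 and MIA control males had 5 in each tissue. The labels give no strain, age, litter, immune agent, dose or time of treatment. Because the immune activation was given to the mother, littermates would share a single exposure, and the p-values below measure only the spread between libraries.

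RGS proteins speed the hydrolysis of GTP by the alpha subunits of heterotrimeric G proteins and so shorten the signal that a G protein-coupled receptor sends. Rgs4, Rgs8, Rgs16 and Rgs2 encode small proteins of the R4 subfamily; the first of these is abundant in cortical neurons, and RGS2 prefers the Gq family and is known as a gene that neuronal activity induces. Rgs7 encodes a member of the R7 subfamily, which works as a complex with the beta subunit Gnb5 and is held at the membrane by Rgs7bp or the receptor Gpr158. Rgs10 and Rgs14 encode R12 proteins that act on Gi alpha subunits; RGS10 is known from microglia and RGS14 from pyramidal neurons of hippocampal area CA2. Rgs20 encodes a member of the RZ subfamily, which acts on Gz.

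Of the 8 genes, 6 lie on chromosome 1, namely Rgs2, Rgs4, Rgs7, Rgs8, Rgs16 and Rgs20. Rgs8 and Rgs16 are direct neighbours there, Rgs4 lies beside Rgs5, and Rgs2 beside Rgs13, while Rgs10 is on chromosome 7 and Rgs14 on chromosome 13 (GENCODE M21 gene order). The promoters of Rgs2 and Rgs4 are shown because these were the R4 members whose levels moved together from library to library in hippocampus, as described below. The 250 bases before the transcription start are RefSeq sequence of build GRCm38.p6, an earlier one than the GRCm39 of the reads, both on the minus strand of chromosome 1, at chr1:144004150-144004399 for Rgs2 and chr1:169747643-169747892 for Rgs4. Capitals mark TGACG, the core of the cyclic AMP response element, read on either strand and so also as CGTCA, and the TATA box letters TATAAA.
Rgs2: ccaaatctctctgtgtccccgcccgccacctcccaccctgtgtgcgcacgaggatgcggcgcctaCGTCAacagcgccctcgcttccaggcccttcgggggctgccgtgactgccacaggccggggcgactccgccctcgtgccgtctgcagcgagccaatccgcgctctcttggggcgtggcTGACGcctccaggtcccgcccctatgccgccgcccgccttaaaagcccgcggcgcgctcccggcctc
Rgs4: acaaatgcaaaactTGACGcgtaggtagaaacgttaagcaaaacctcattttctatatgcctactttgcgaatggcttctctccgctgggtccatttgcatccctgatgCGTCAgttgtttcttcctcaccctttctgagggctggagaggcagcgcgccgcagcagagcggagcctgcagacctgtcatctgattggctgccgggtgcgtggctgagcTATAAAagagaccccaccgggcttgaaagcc

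TGACG was found 2 times in each of these windows, at 185 and 67 bases before the start of Rgs2 and at 236 and 141 bases before the start of Rgs4. On either strand, the motif occurs in 17.8% of the 32851 promoters in the table. The Rgs4 window also held TATAAA, 31 bases before the start, a motif present on either strand in 12.4% of all promoters, and the Rgs2 window held no TATAAA. Instead, the Rgs2 window held 4 matches to GGGCGG, the letters of a GC box, which 32.7% of promoters contain, and its GC content was 72.4%, against 53.6% for Rgs4 and a median of 52.4% over all promoters. Of the 8 genes, 6 matched an entry in the table, all but Rgs14 and Rgs20. Among these others, 1 of the 3 Rgs8 promoters held 1 TGACG, Rgs10 and Rgs16 held 2 GGGCGG each, and Rgs7 held none of these motifs. The shares of all promoters given above count those with at least 1 match anywhere in the window. They do not tell how common 2 or 4 matches are, or a match at a given place. These matches are descriptions of the letters only.

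Recovered reads per library ran from 22234569 to 26689351 in hippocampus and from 22752437 to 25928320 in prefrontal cortex, and values below are the deposited signal, in which the authors had scaled each library by its own factor. In each tissue a set of libraries, called high-share libraries below, stood out by the share of signal on genes of ribosomal proteins and nuclear genes of oxidative phosphorylation. In hippocampus these were 14 of 48 libraries, with shares of 1.51 to 1.73% against 1.08 to 1.33% in the 34 others, and in prefrontal cortex 16 of 48, with 1.40 to 1.69% against 1.04 to 1.29% in the 32 others. They were unevenly spread over the inhibitor groups: 2 of 24 inhibitor libraries and 12 of 24 control libraries in hippocampus, and 2 of 24 and 14 of 24 in prefrontal cortex. They were closer to evenly spread over the other factors, with 6 MIA and 8 saline libraries in hippocampus and 7 and 9 in prefrontal cortex. Each main comparison was therefore also fitted with the set as a term and with the set left out. Tissue labels matched their markers: 6 of 7 dentate granule cell genes were higher in hippocampus and 6 of 7 upper cortical layer genes higher in prefrontal cortex.

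Rgs4 had the highest level of the 19 RGS genes in the table in both tissues. On a scale common to both tissues and divided by exon length, it averaged 1305 signal per kb in hippocampus and 3526 in prefrontal cortex. The second in both was Rgs5, a gene of pericytes that is not among the 8, with 618 signal per kb in hippocampus and 567.98 in prefrontal cortex. In hippocampus the members followed in the order Rgs14 (547 signal per kb), Rgs8 (315), Rgs7 (292), Rgs10 (230), Rgs2 (224), Rgs20 (84.6) and Rgs16 (78.1). In prefrontal cortex the order was Rgs2 (397 signal per kb), Rgs7 (350), Rgs14 (338), Rgs8 (293), Rgs10 (224), Rgs20 (172) and Rgs16 (93.4). Neighbours in these orders that lie within the spread of libraries include Rgs10 and Rgs2 in hippocampus and Rgs7 and Rgs14 in prefrontal cortex. The lowest of the family was Rgs1, a gene of immune cells, with 0.756 signal per kb in hippocampus and 0.694 in prefrontal cortex.

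**Figure D1:**
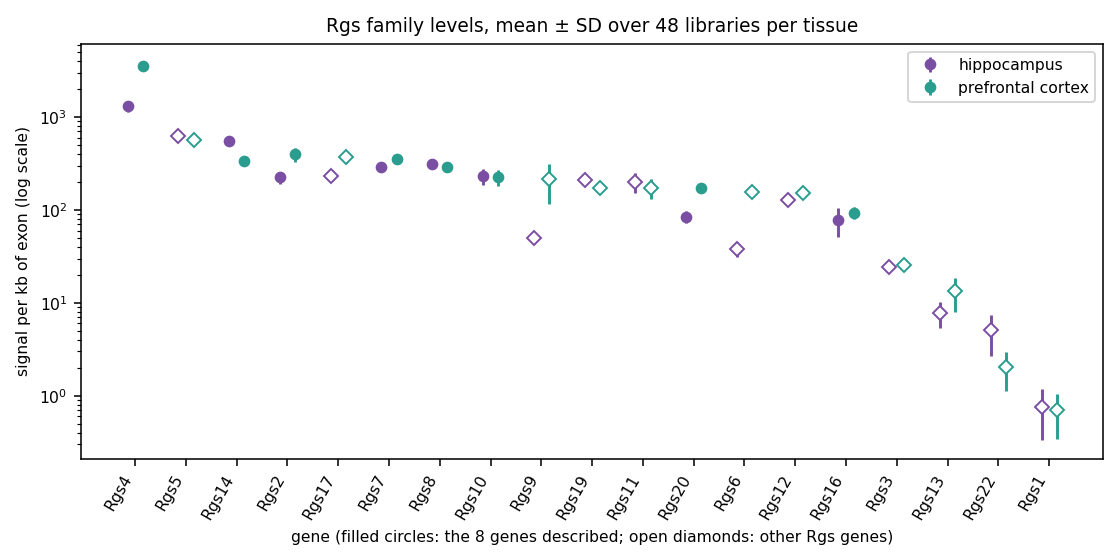
Mean signal per kb of exon of the 19 RGS genes on a common scale, on a log axis, for hippocampus and prefrontal cortex (48 libraries each); the 8 genes described are filled circles, the others open diamonds, and bars are ± SD. Rgs4 leads in both tissues, at 1305 signal per kb in hippocampus and 3526 in prefrontal cortex, and Rgs1 is lowest at 0.756 and 0.694.

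Most of the 8 genes differed between the tissues. In a fit of all 16 groups, 7 of the 8 passed the test between hippocampus and prefrontal cortex, against a background of 66.3% of the 20384 genes tested. Rgs4 had 3302 to 5028 signal in hippocampus (common scale, lowest and highest of 48) and 8509 to 12861 in prefrontal cortex, so the tissues did not overlap. The difference, hippocampus minus prefrontal cortex, was -1.44 ± 0.02 (log2 fold change ± SE) with a limma adjusted p of 3.3e-68. Rgs20 averaged 358 ± 54.9 signal in hippocampus and 727 ± 71.7 in prefrontal cortex (SD, n = 48 each), and again the tissues did not overlap, the highest hippocampal library being at 542 and the lowest cortical one at 578. The log2 difference of Rgs20 was -1.03 ± 0.03. How many of all genes separate the tissues without overlap was not counted, for these genes or for Rgs14 below. Rgs2 was lower in hippocampus, with a log2 difference of -0.82 ± 0.04, with overlap between 1011 and 1092 signal. Rgs16 and Rgs7 were also lower in hippocampus, with log2 differences of -0.30 and -0.26.

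Rgs14 and Rgs8 were the members with higher levels in hippocampus. Rgs14 ranged from 1819 to 2975 signal in hippocampus, with a median of 2269.6, and from 1165 to 1788 in prefrontal cortex, with a median of 1411. All hippocampal libraries lay above the highest cortical one, and the log2 difference was 0.69 ± 0.03 (limma adjusted p 1.1e-35). Of 7 markers of CA2 pyramidal neurons, where RGS14 is known to be expressed, 5 were higher in hippocampus and 2 lower. Rgs8 was higher in hippocampus by 0.11 ± 0.03 on the log2 scale (limma adjusted p 0.0027), but in saline control libraries alone the difference of 0.10 had a limma adjusted p of 0.20, where 40.7% of genes and 6 of the 8 members were called. Rgs10 did not pass, with a difference of 0.04 and a 95% interval of -0.06 to 0.13. The prefrontal libraries varied in their content of striatal genes: 11 markers of striatal neurons summed to between 8986 and 50651 signal there, and to between 8956 and 11110 in hippocampus. Rgs8 in prefrontal cortex followed this sum, and so did Rgs14, Rgs20 and Rgs2, as given below. The part of the striatal sum in their tissue differences was not tested.

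The subunits and partners of the family also differed between the tissues. Of the 10 other RGS genes tested, 4 were higher in hippocampus and 6 lower, the widest being Rgs6 at -2.05 and Rgs9, a striatal member of the R7 subfamily, at -1.95 on the log2 scale. Rgs9 is itself among the striatal markers, and it ran from 277 to 2932 signal in prefrontal cortex on the common scale. The part of striatal content in its tissue difference was not tested. Among the 5 genes for partners of R7 proteins, Gnb5 (-0.44), Gpr158 (-0.49), Rgs7bp (-0.16) and Gpr179 (-0.34) were lower in hippocampus, as was Rgs7 itself, and Rgs9bp (0.39) was higher.

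Rgs4 after MIA in prefrontal cortex is the pattern for which the gene was chosen. In MIA control females it had 11595, 12908, 11134, 12830, 11517, 12829 and 12180 signal, against 11785, 10457, 9688, 10892, 10274 and 11491 in saline control females. In MIA control males it had 11579, 12037, 10799, 10993 and 12896 signal, against 11251, 10609, 10090, 9894, 10255 and 9387 in saline control males. In both sexes the groups overlapped: the lowest 3 MIA control females lay within the saline range, and so did 2 of the 5 MIA control males. With the inhibitor, MIA females had 10108, 12519, 11247, 10532, 10909 and 10453 signal, against 10824, 9578, 10809, 8550, 9968 and 9914 in saline females. With the inhibitor, MIA males had 10929, 11584, 11408, 11213, 10513 and 11743 signal, against 10296, 10565, 9544, 12154, 11622 and 10482 in saline males. Among inhibitor-treated males the highest library was a saline one.

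**Figure D2:**
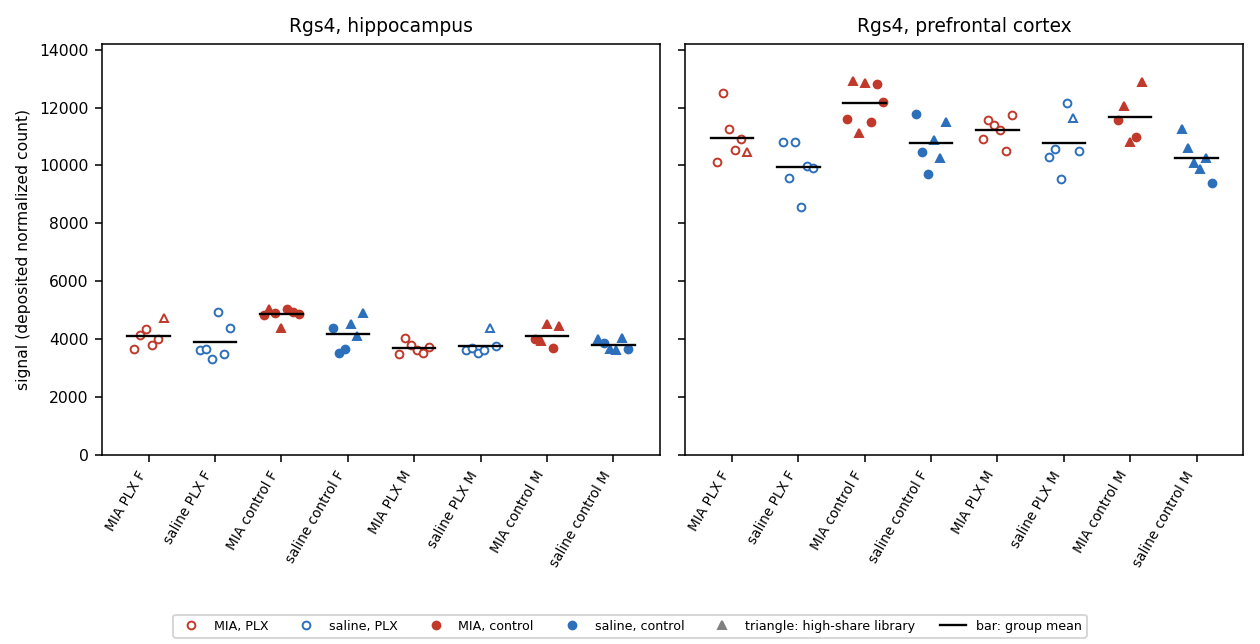
Rgs4 signal in each library by group, MIA left of saline, in hippocampus and prefrontal cortex, with group means as black bars. Triangles are high-share libraries, open symbols are inhibitor libraries and filled symbols controls. In prefrontal cortex the MIA libraries run from 10108 to 12908 and the saline libraries from 8550 to 12154.

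Over all strata Rgs4 in prefrontal cortex averaged 11519 ± 834 signal in 24 MIA libraries and 10432 ± 840 in 24 saline libraries (SD). The difference, averaged with equal weight over 4 strata of sex and inhibitor, was 0.14 ± 0.03 on the log2 scale, a fold of 1.103. By stratum it was 0.17 in control females, 0.19 in control males, 0.14 in inhibitor-treated females and 0.06 in inhibitor-treated males. With a term for the high-share libraries it was 0.15, and without them 0.17. These values describe the choice of the gene and carry no test.

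In hippocampus, which the choice did not use, Rgs4 did not pass the test. It ran from 3490 to 5057 signal in MIA libraries, with a median of 4088, and from 3313 to 4953 in saline libraries, with a median of 3681. The groups overlapped over nearly the whole range. The log2 difference was 0.10 ± 0.04, with an unadjusted p of 0.014 and a limma adjusted p of 0.90. It was largest in control females, with 4390 to 5057 signal in 7 MIA libraries and 3515 to 4914 in 6 saline libraries, a log2 difference of 0.22 ± 0.07 (limma adjusted p 0.61), a stratum in which 1 gene (0.00502%) was called. In inhibitor-treated males it was -0.03. With a term for the high-share libraries the averaged difference was 0.11 (adjusted p 0.46).

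By limma 0% of genes were called in the averaged MIA comparison of either tissue. None of the 8 members in hippocampus or the 7 tested in prefrontal cortex therefore passed, and Rgs4 in prefrontal cortex was not tested. At an unadjusted p under 0.05 limma counted 949 of 19938 genes (4.76%) in hippocampus and 1183 of 19841 (5.96%) in prefrontal cortex, against which stand 2 of 8 members in hippocampus and 1 of the 7 tested members in prefrontal cortex. edgeR called 0 genes in either tissue, and DESeq2 called 10 in hippocampus and 5 in prefrontal cortex, with no member among them. The median log2 difference of the 8 members was -0.01 in hippocampus, against -0.0018 over all genes tested, and 0.08 in prefrontal cortex, against 0.0045, where the count includes Rgs4.

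Among the members other than Rgs4, Rgs20 had the smallest p-values for MIA in both tissues. In hippocampus it ranged from 296 to 547 signal in MIA libraries, with a median of 373, and from 239 to 419 in saline libraries, with a median of 343. The groups overlapped, and the log2 difference was 0.15 ± 0.05 with a limma adjusted p of 0.69. It was 0.30 in control males, and 0.11, 0.15 and 0.06 in control females, inhibitor-treated females and inhibitor-treated males. In control males 5 MIA libraries had 365 to 469 signal and 6 saline libraries had 327 to 360, without overlap. Limma called 0 of 19938 genes for MIA in that stratum, and how many of all genes separate as fully was not counted. In prefrontal cortex Rgs20 averaged 754 ± 74.5 signal in MIA libraries and 708 ± 63.9 in saline libraries (SD, n = 24 each). The difference there was 0.09 ± 0.04 (limma adjusted p 0.78).

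Genes that neuronal activity induces were summed beside these values. The 15 activity genes, such as Fos and Egr1, summed to 19339 ± 6330 signal in MIA and 15383 ± 3236 in saline hippocampus, and to 29842 ± 8247 and 23642 ± 4907 in prefrontal cortex. None of the 15 was called in either tissue by limma, and their median log2 difference was 0.31 in hippocampus and 0.29 in prefrontal cortex. In the 34 hippocampal libraries outside the high-share set, Rgs20 followed this sum with a Pearson r of 0.64 and a Spearman rho of 0.58 (permutation p 5e-05 and 0.00038, adjusted over 24 relations 0.0012 and 0.0091), and with r 0.54 without the 2 libraries farthest from the median. This relation, like the others within a tissue below, was taken over all groups without removing group means. Differences between groups therefore enter its r, rho and p-values. The part of the activity sum in the MIA difference of Rgs20 was not tested. Rgs2, itself known as an activity-induced gene, had an r of 0.07 and a rho of 0.018 with the same sum (adjusted permutation p 0.82 and 0.95).

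None of the other members passed for MIA. In hippocampus the log2 differences were 0.06 for Rgs2, -0.01 for Rgs7, -0.02 for Rgs8, -0.01 for Rgs10, -0.04 for Rgs14 and -0.04 for Rgs16. For Rgs7 the 95% interval ran from -0.05 to 0.03, and for Rgs16, the most variable member, from -0.25 to 0.17. In prefrontal cortex they were 0.10 for Rgs2, 0.09 for Rgs8, 0.07 for Rgs16, 0.02 for Rgs14, and -0.0016 and -0.0024 for Rgs7 and Rgs10. Rgs2 showed its widest cortical difference in inhibitor-treated females, with 1153 to 1860 signal after MIA and 1128 to 1383 after saline, a log2 difference of 0.27 ± 0.12 that did not pass (limma adjusted p 0.76). Striatal markers averaged 26782 ± 11590.5 signal in MIA and 22726 ± 8838 in saline prefrontal cortex, and their part in the values of Rgs2 and Rgs8 there was not tested.

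**Figure D3:**
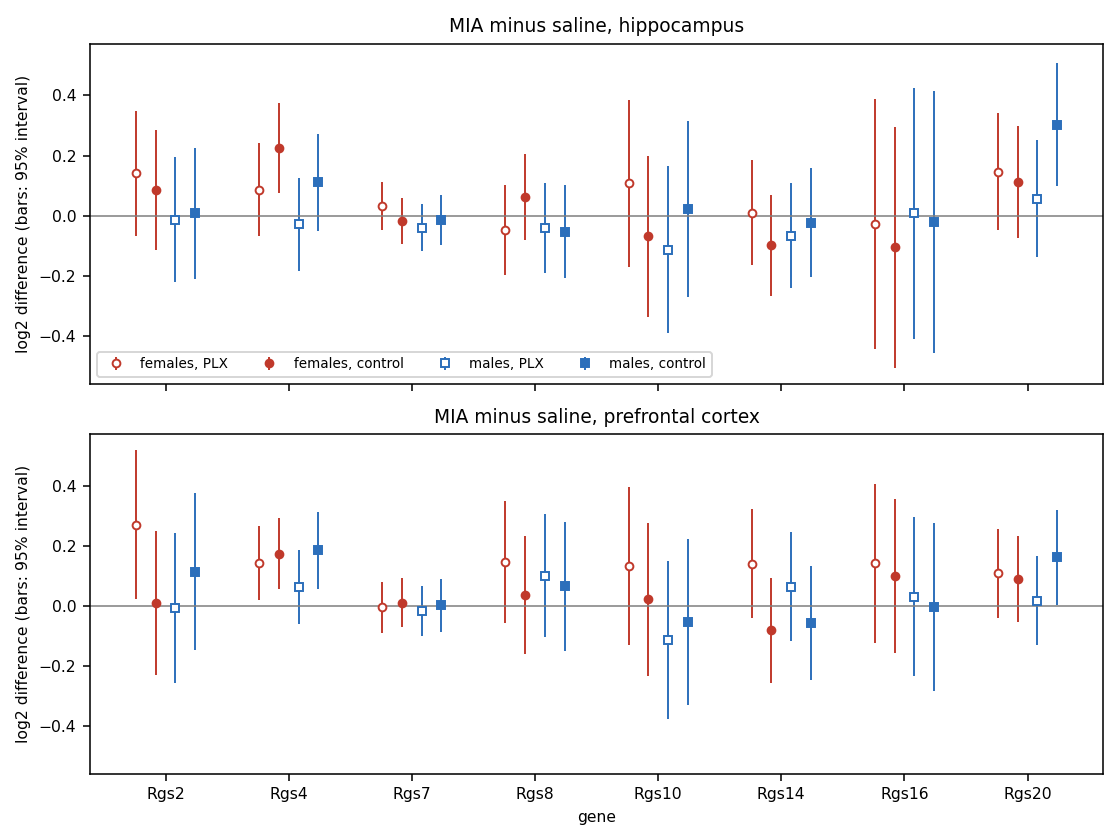
Log2 fold change of MIA over saline for the 8 members in the 4 strata of sex and inhibitor (4 per gene, open symbols with the inhibitor), with 95% intervals, in hippocampus and prefrontal cortex. Rgs4 in prefrontal cortex, shown as a description, is at 0.17, 0.19, 0.14 and 0.06 in the strata, and Rgs16 has the widest intervals in hippocampus.

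Whether the MIA difference was another one under the inhibitor, or in females, was asked by interaction terms. By limma no member was called for either term in either tissue. For MIA by inhibitor 0 genes were called in both tissues by limma, edgeR and DESeq2, with 407 genes (2.04%) at an unadjusted p under 0.05 in hippocampus and 988 (4.98%) in prefrontal cortex. For MIA by sex limma called 1 gene (0.00502%) in hippocampus, which was no member, and 0 in prefrontal cortex, with 814 (4.08%) and 474 (2.39%) at an unadjusted p under 0.05, and DESeq2 called 0 in both. For Rgs4 in hippocampus the MIA difference with the inhibitor minus that without it was -0.14 ± 0.08 on the log2 scale (unadjusted p 0.078, limma adjusted p 0.999978). In prefrontal cortex the same term for Rgs4 was -0.08, given without a test because it holds the contrast that chose the gene. Rgs14 in prefrontal cortex had the smallest p among the members for this term, 0.065, at 0.17 ± 0.09 (adjusted p 0.89). The MIA difference did not pass a test between the tissues for any of the 7 members tested, nor for any other gene by limma, with 420 of 20384 genes (2.06%) at an unadjusted p under 0.05.

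Of the treatment comparisons, that of PLX5622 with control gave the most calls. In hippocampus 7 of 8 members passed, 1 higher and 6 lower with the inhibitor, against 40% of all genes called, 20.8% higher and 19.2% lower. In prefrontal cortex 3 of 8 passed, all lower, against 37.8% of genes called, 19.7% higher and 18.1% lower. The median log2 difference of the members was -0.13 in hippocampus and -0.08 in prefrontal cortex, against -0.0017 and -0.00024 over all genes tested. With a term for the high-share libraries, 75 genes (0.376%) were called in hippocampus and 48 (0.242%) in prefrontal cortex, and without those libraries 9 (0.0457%) and 59 (0.302%), in each case with 0 members by limma. The part of these libraries in the inhibitor differences was not tested beyond these fits.

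Rgs2 in hippocampus ran from 545 to 920 signal with the inhibitor, with a median of 756, and from 663 to 1106 in controls, with a median of 919. Inhibitor libraries filled the low end and the groups overlapped between. The log2 difference was -0.23 ± 0.05 (limma adjusted p 0.0012), and with the term for high-share libraries it was -0.10 ± 0.04 (adjusted p 0.24). In hippocampal controls Rgs2 averaged 966 ± 80.5 signal in the 12 high-share libraries and 810 ± 101 in the other 12. It averaged 737 ± 64.7 in the 22 inhibitor libraries outside the set. In prefrontal cortex its difference was -0.14 (limma adjusted p 0.070), and it passed by edgeR (-0.15, adjusted p 0.044) and DESeq2 (-0.15, adjusted p 0.041), and by limma when any 1 of 4 libraries was left out. Activity-induced genes differed with the inhibitor as well: 7 of 15 were lower in hippocampus, where the median of the 15 was -0.36 on the log2 scale and their sum averaged 15478 ± 2993 signal with the inhibitor and 19244 ± 6507 in controls (SD, n = 24 each). In prefrontal cortex 1 was higher and 3 lower. Of all genes, 19.2% were lower in hippocampus, and 19.7% higher and 18.1% lower in prefrontal cortex. With the term 0 of the 15 were called in either tissue, and their part in the differences of Rgs2 and Rgs20 was not tested.

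Rgs10, the R12 member known from microglia, was lower with the inhibitor in both tissues. In hippocampus it ran from 297 to 508 signal with the inhibitor, with a median of 353, and from 291 to 564 in controls, with a median of 427. In prefrontal cortex it ran from 275 to 531 with the inhibitor (median 329) and from 311 to 566 in controls (median 426). The log2 differences were -0.26 ± 0.07 in hippocampus (limma adjusted p 0.0041) and -0.30 ± 0.07 in prefrontal cortex (adjusted p 0.0015). The groups overlapped over most of the range in both tissues, and the highest libraries were controls. With the term for high-share libraries the log2 differences were -0.05 (adjusted p 0.66) and -0.07 (adjusted p 0.60), moving by more than 1.5 times. In hippocampus Rgs10 averaged 500 ± 47.2 signal in the 12 high-share control libraries, 367 ± 47.8 in the other 12 control libraries and 348 ± 29.3 in the 22 inhibitor libraries outside the set.

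Markers of microglia, the cells that depend on CSF1R, were summed in the same libraries. The sum of 15 microglial markers was 10593 to 12909 signal with the inhibitor and 10782 to 17293 in controls in hippocampus, and 10746 to 13598 against 11625 to 16253 in prefrontal cortex. No marker was at 0 in all libraries, and the median log2 differences of the 15 were -0.14 and -0.17. Of the 15, 9 were lower with the inhibitor in each tissue, against 19.2% of all genes in hippocampus and 18.1% in prefrontal cortex. With the term for high-share libraries 3 were lower and 1 higher in hippocampus and 6 lower and 1 higher in prefrontal cortex. In high-share libraries the sum averaged 13168 ± 1581 in hippocampus, against 11663 ± 686 in the rest, most of which were inhibitor libraries. Among libraries outside the high-share set, Rgs10 followed the microglial sum with r 0.55 and rho 0.53 in hippocampus (n = 34, permutation p 0.00083 and 0.0014, adjusted 0.010 and 0.011) and with r 0.60 and rho 0.61 in prefrontal cortex (n = 32, permutation p 0.00031 and 0.00023, adjusted 0.0020 and 0.0014). Without the 2 farthest libraries r was 0.51 and 0.58. Group means were not removed, so inhibitor and other group differences enter these relations beside the covariation of libraries within groups. The part of the microglial sum in the inhibitor difference of Rgs10 was not tested, and in bulk tissue fewer cells of a type and less RNA per cell cannot be told apart.

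Rgs20 in hippocampus had an inhibitor difference of like size in the 3 fits, but averaged over strata it passed only with all libraries and no term. It ran from 239 to 413 signal with the inhibitor, with a median of 329, and from 327 to 547 in controls, with a median of 381. The lowest inhibitor libraries lay below all controls and the rest overlapped. The log2 difference was -0.22 ± 0.05 (limma adjusted p 0.0011), -0.19 with the set as a term (adjusted p 0.083), and also -0.19 with the set left out (adjusted p 0.27). In prefrontal cortex it was -0.07 ± 0.04 (adjusted p 0.12). The difference between the tissues in this effect was -0.15, with an unadjusted p of 0.014 and a limma adjusted p of 0.999978. No gene was called for that term by limma, with 548 of 20384 (2.69%) at an unadjusted p under 0.05. With a replicate block for libraries of the same label, which the labels do not state to be 1 animal, limma called 10 genes and no member, and Rgs20 had an adjusted p of 0.40.

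The remaining calls were smaller. In hippocampus Rgs8 was higher with the inhibitor, at 3190 ± 249 signal against 2933 ± 307 in controls (SD, n = 24 each), a log2 difference of 0.13 ± 0.04 (limma adjusted p 0.0054). Lower there were Rgs4, with a log2 difference of -0.13 (limma adjusted p 0.0072), Rgs14 with -0.12 (0.025) and Rgs7 with -0.06 (0.013). None of these hippocampal calls held with the term for high-share libraries or without those libraries. Rgs4 averaged 4267 signal in the 12 high-share controls, 4282 in the other 12 controls and 3807 in the 22 inhibitor libraries outside the set. In the same order Rgs14 averaged 2576, 2283 and 2205 signal, and Rgs7 1838, 1778 and 1731. In prefrontal cortex Rgs7 was lower, with -0.09 (limma adjusted p 0.0023), and Rgs14, with -0.12 (0.036). Rgs14 there turned to 0.011 with the set of high-share libraries as a term (limma adjusted p 0.96) and to 0.018 with it left out (limma adjusted p 0.91). In cortical controls it averaged 1622 ± 118 signal in the 14 high-share libraries and 1323 ± 88.3 in the other 10. It averaged 1366 ± 119 in the 22 inhibitor libraries outside the set. Cortical Rgs7 did not pass in those fits either, at -0.06 (adjusted p 0.26) and -0.07 (0.29). Rgs4 and Rgs8 did not pass in prefrontal cortex, at -0.06 (limma adjusted p 0.11) and 0.09 (0.18). The call of Rgs14 in prefrontal cortex was lost when any 1 of 14 libraries was left out, with adjusted p-values up to 0.067. Markers of CA2 neurons in hippocampus followed the same libraries as Rgs14: they summed to 4952 ± 327 signal in high-share libraries and 4288 ± 411 in the rest, and Rgs14 itself averaged 2579 ± 211 and 2233 ± 200. Most of the rest were inhibitor libraries, so the inhibitor difference enters these averages. Rgs16 did not pass in either tissue, and its difference in hippocampus was 0.06 (limma adjusted p 0.67). In prefrontal cortex its difference was -0.07, and turned to 0.12 with the set as a term and to 0.23 ± 0.07 with it left out (limma adjusted p 0.16).

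**Figure D4:**
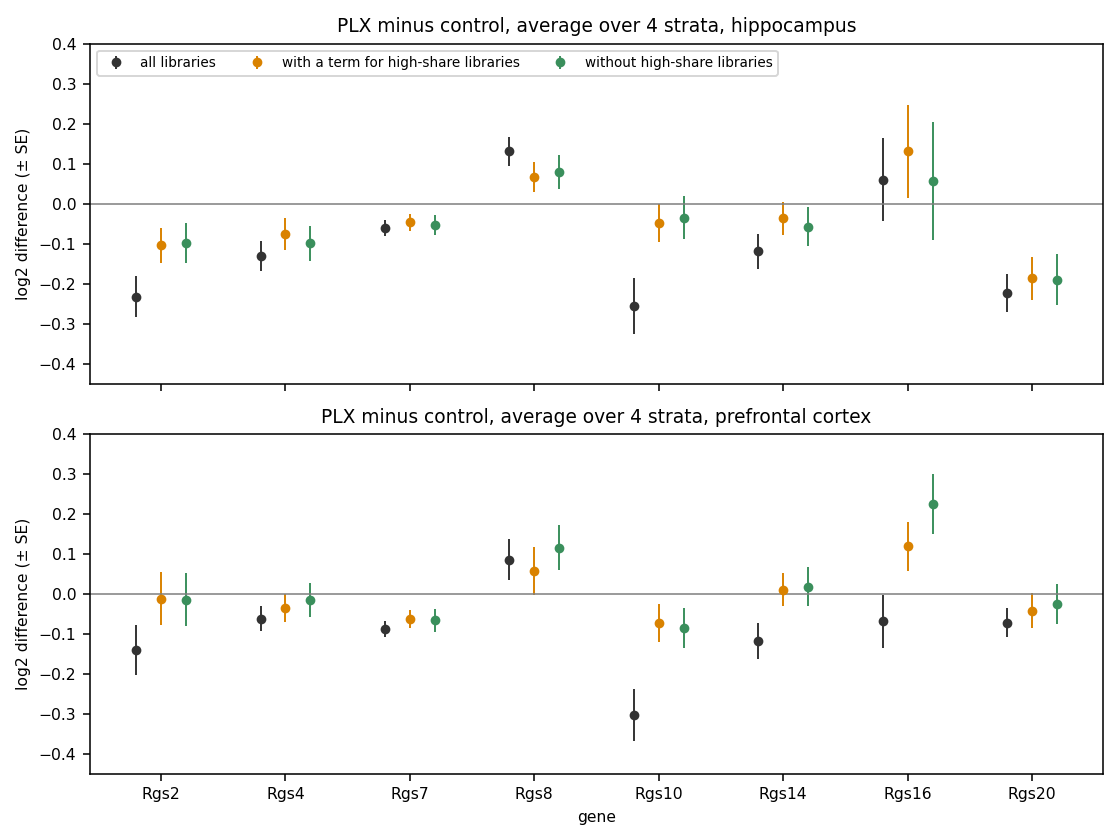
Log2 fold change of PLX5622 over control for the 8 members, averaged over strata with bars of ± SE, in all libraries, with a term for the high-share libraries and without those libraries, in both tissues. In hippocampus Rgs10 is at -0.26, -0.05 and -0.04 in the 3 fits and Rgs20 at -0.22, -0.19 and -0.19.

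The inhibitor was also compared with control within each sex. In hippocampus 2 members were lower with the inhibitor in females, Rgs2 at -0.28 ± 0.07 (limma adjusted p 0.035) and Rgs20 at -0.31 ± 0.07 (adjusted p 0.019), against 2.09% of genes called. Rgs20 had 239 to 411 signal in 12 inhibitor-treated females and 335 to 547 in 13 control females. With the term for high-share libraries, where 82 genes (0.411%) were called, Rgs20 in females was -0.29 (adjusted p 0.045) and Rgs2 -0.19 (adjusted p 0.083). Without those libraries, where 3 genes (0.0152%) were called, Rgs20 was -0.27 (adjusted p 0.40). In males 1 member passed in hippocampus, Rgs8 at 0.19 ± 0.05 (adjusted p 0.012), against 26.2% of genes. Of the males there, 1 of 12 with the inhibitor and 7 of 11 controls were high-share libraries. In controls of both sexes Rgs8 averaged 2777 ± 222 signal in the 12 high-share libraries and 3089 ± 307 in the other 12. It averaged 3223 ± 232 in the 22 inhibitor libraries outside the set. Rgs8 in males was 0.11 with the set as a term (limma adjusted p 0.63), where 8 genes (0.0401%) were called, and 0.12 with it left out (adjusted p 0.78), where 3 (0.0152%) were. In prefrontal cortex no member passed in females, where 36 genes did (0.181%), and 3 of the 7 tested passed in males (Rgs4 was not tested within strata of this tissue), Rgs10 at -0.39 (adjusted p 0.011), Rgs14 at -0.19 (0.028) and Rgs7 at -0.08 (0.044), against 27.9%. Here 1 of 12 inhibitor-treated males and 8 of 11 control males were high-share libraries. In cortical controls of both sexes Rgs10 averaged 478 ± 51.5 signal in the 14 high-share libraries and 355 ± 26.6 in the other 10. It averaged 333 ± 29.1 in the 22 inhibitor libraries outside the set. None of the 7 passed in males with the set as a term, where 11 genes (0.0554%) were called, or with it left out, where 6 (0.0307%) were. Rgs10 was -0.11 in both of those fits, Rgs14 -0.03 and -0.02, and Rgs7 -0.05 and -0.07. The difference between the sexes in the inhibitor effect passed for no gene in either tissue by limma, edgeR or DESeq2, with 984 genes (4.94%) in hippocampus and 900 (4.54%) in prefrontal cortex at an unadjusted limma p under 0.05.

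Rgs16 in hippocampus had the smallest p of the members for that difference between the sexes, and the term was looked at in more detail after its value was seen. In 12 inhibitor-treated females Rgs16 ran from 141 to 438 signal with a median of 203, and in 13 control females from 128 to 286 with a median of 167. In 12 inhibitor-treated males it ran from 107 to 204 signal with a median of 154, and in 11 control males from 153 to 202 with a median of 163. The log2 difference was 0.37 ± 0.14 in females and -0.25 ± 0.15 in males, and the sexes differed by 0.63 ± 0.21 with an unadjusted p of 0.0040 and a limma adjusted p of 0.86. The share of genes at an unadjusted p under 0.05 for this term is given above. Over all leave-one-out fits it ran from 0.53, without saline inhibitor-treated female 4, to 0.70, without saline control female 1. With a term for the high-share libraries it was 0.59 and without them 0.57, alternatives chosen after the data were seen, and it passed in none of these fits.

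The 4 hippocampal libraries with the highest Rgs16 were all from females. Saline inhibitor-treated female 4 had 438 signal, MIA inhibitor-treated female 3 had 389, MIA inhibitor-treated female 6, a high-share library, had 315, and saline control female 1 had 286. The other 44 libraries lay between 107 and 258, with a median of 164. The genes whose log2 signal followed Rgs16 most closely over the 48 hippocampal libraries were Vipr2 (r 0.83), Ramp3 (0.82), Tnnt1 (0.73), Nexn (0.71) and Adamts15 (0.69), named after their values were seen and given as a description of these libraries. Saline inhibitor-treated female 4 was the highest of 48 libraries for Rgs16, Vipr2, Ramp3, Tnnt1 and Nexn alike. In that library Vipr2, a receptor for vasoactive intestinal peptide, had 130 signal against a median of 16.9 in the other 44, and Tnnt1 had 242 against 32.2. Whether the tissue content of these 4 libraries differed was not tested, nor was its part in the Rgs16 values by sex and inhibitor.

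**Figure D5:**
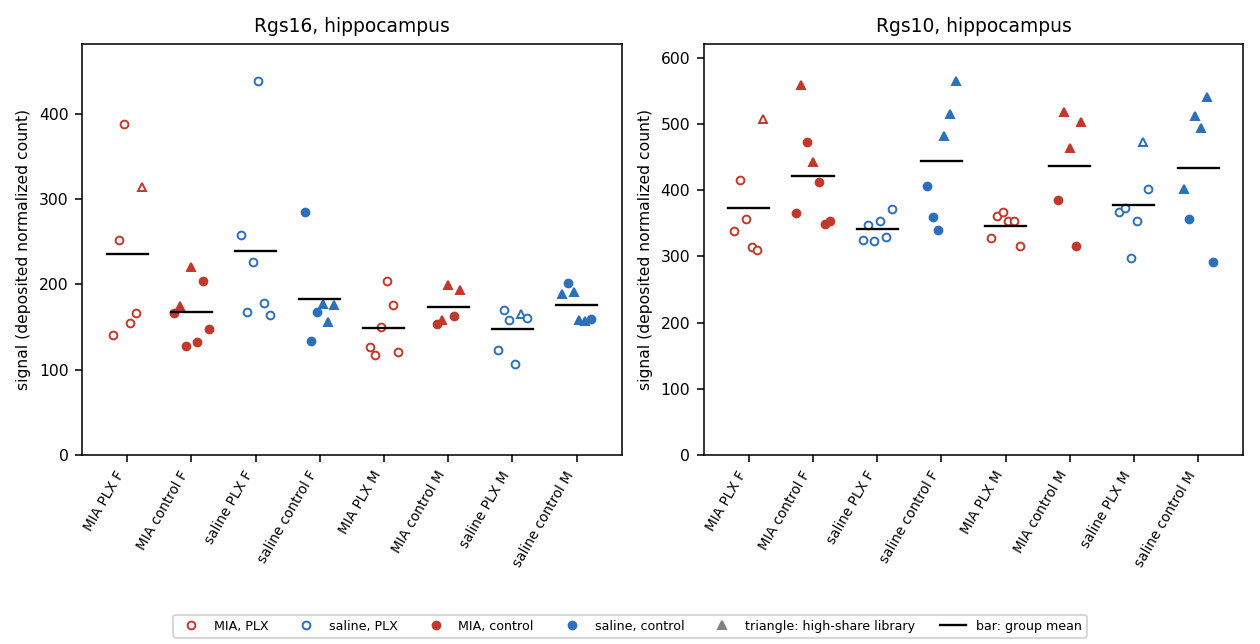
Signal of Rgs16 and Rgs10 in hippocampal libraries by group, inhibitor left of control, with high-share libraries as triangles and group means as black bars. For Rgs16 the highest point is saline inhibitor-treated female 4 at 438, and for Rgs10 the 14 high-share libraries lie at 402 to 564 signal, 12 of them controls.

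Between the sexes 0 members passed in either tissue by limma, where 49 genes (0.246%) were called in hippocampus and 28 (0.141%) in prefrontal cortex, and 1566 (7.85%) and 1200 (6.05%) had an unadjusted p under 0.05. DESeq2 called 81 genes in hippocampus, 1 of them a member, and edgeR called 51 with no member. The smallest p-values in hippocampus were those of Rgs7 and Rgs4. Rgs4 ran from 3313 to 5057 signal in 25 females, with a median of 4368, and from 3490 to 4523 in 23 males, with a median of 3720. The log2 difference was 0.14 ± 0.04, with an unadjusted p of 0.00076 and a limma adjusted p of 0.15. With the term for high-share libraries, where 87 genes (0.436%) were called, it passed, at 0.15 (adjusted p 0.027), and without those libraries it did not, at 0.14 (adjusted p 0.44). Rgs7 averaged 1730 ± 84.3 signal in females and 1817 ± 73.2 in males, a difference of -0.07 ± 0.02 (limma adjusted p 0.14) that DESeq2 called with an adjusted p of 0.033. Rgs16 differed by 0.29 ± 0.10 and did not pass (limma adjusted p 0.39). In prefrontal cortex Rgs4 differed by -0.0063 and Rgs20 by -0.12 ± 0.04, at 705 ± 72.2 signal in 25 females and 758.5 ± 63.1 in 23 males (limma adjusted p 0.45). None of the other members passed between the sexes. In hippocampus the log2 differences were -0.03 for Rgs2, 0.04 for Rgs8, -0.0099 for Rgs10, 0.0025 for Rgs14 and -0.03 for Rgs20. In prefrontal cortex they were -0.08 for Rgs2, -0.04 for Rgs7, 0.02 for Rgs8, -0.0047 for Rgs10, -0.06 for Rgs14 and -4.96e-06 for Rgs16.

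The genes around the RGS proteins were counted in the same comparisons. For MIA and for sex, 0 of the G alpha subunits (12 in hippocampus and 11 in prefrontal cortex), 19 effectors, 34 receptors, 10 other RGS genes and 5 R7 partners were called by limma in either tissue. With the inhibitor, 20.8% of all genes were higher and 19.2% lower in hippocampus, and 19.7% and 18.1% in prefrontal cortex. Of 19 effectors, 9 were higher and 0 lower in each tissue, among them the adenylyl cyclase Adcy9 (log2 difference 0.42 in hippocampus and 0.56 in prefrontal cortex), the potassium channel Kcnj6 (0.57 and 0.66) and the calcium channel Cacna1a (0.27 and 0.24). Of 34 receptors, 10 were higher and 2 lower in hippocampus and 11 higher and 0 lower in prefrontal cortex, with the mu opioid receptor Oprm1 at 1.06 and 0.89. Of the G alpha subunits, Gnai2 was lower in both tissues (-0.15 and -0.18) and Gnaq higher (0.12 and 0.15). Among the partners of Rgs7, Gnb5 was lower (-0.19 and -0.14) as Rgs7 was, and Gpr158 was higher (0.20 and 0.23). Of the 10 other RGS genes, Rgs9 (0.16) and Rgs11 (0.24) were higher and Rgs13 (-0.38) lower in hippocampus, and Rgs17 (0.19) was higher and Rgs19 (-0.13) lower in prefrontal cortex. With the term for the high-share libraries, 0 genes of these 5 lists were called in either tissue.

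How the members varied together was examined among the libraries outside the high-share set, over 28 pairs per tissue. In hippocampus Rgs2 and Rgs4, the pair with the promoters shown above, had r 0.63 and rho 0.56 (n = 34, permutation p 2e-05 and 0.00067, adjusted 0.00056 and 0.019), and r 0.63 without the 2 libraries farthest from the median. Rgs4 and Rgs10 in hippocampus passed by r, at 0.53 (adjusted permutation p 0.018), but not by rho, at 0.47 (adjusted permutation p 0.081). In prefrontal cortex Rgs2 and Rgs4 had r 0.40 and rho 0.32 (n = 32), and r 0.25 without the 2 farthest libraries. By r the closest pair there was Rgs2 and Rgs20, with r 0.65 and rho 0.56 (adjusted permutation p 0.0017 and 0.014) and r 0.56 without the 2 farthest libraries. Rgs8 and Rgs20 had a higher rho of 0.64 (adjusted permutation p 0.0045), with r 0.51 (0.013) and r 0.61 without the 2 farthest libraries. Rgs2 with Rgs8, Rgs2 with Rgs14 and Rgs8 with Rgs14 also passed by both measures, with r 0.57, 0.52 and 0.54. Each of these genes also followed the striatal sum, as given below, and its part in the pairs was not tested. Rgs4 and Rgs20 had r 0.57 and rho 0.44 in prefrontal cortex, and r 0.44 without the 2 farthest libraries. Relations of Rgs4 in this tissue are given without a test, because they hold the MIA difference on which the gene was chosen. The level of a member in 1 tissue did not pass a test of relation to its level in the other tissue under the same label, over 32 labels, for any of the 8 (lowest adjusted permutation p 0.455 for r and 0.324 for rho).

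The genes most like Rgs4 were taken by the correlation of log2 signal over the 48 libraries of a tissue. In hippocampus these were Tmeff1 (r 0.72), Pak1 (0.70), Ndfip2 (0.68), Kcnip3 (0.67) and Rln1 (0.66), with Rgs2 at rank 6 (0.65). In prefrontal cortex they were Pak1 (r 0.69), Arpp19 (0.67), Stau2 (0.67), Ociad1 (0.66) and Dynlt3 (0.65), with Rgs20 at rank 38 (0.57). Pak1, a kinase of the actin cytoskeleton, was thus among the 5 in both tissues.

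Rgs8 in prefrontal cortex followed striatal genes. Its signal had an r of 0.90 and a rho of 0.85 with the sum of 11 striatal markers (n = 32, permutation p 1e-05 for both, the smallest that the permutations can give, adjusted over 24 relations 0.00024), and r 0.86 without the 2 farthest libraries. The genes most like it over 48 libraries were Gnal (r 0.91), the G alpha subunit known from striatal neurons, Pde7b (0.91), Pde10a (0.91), which is itself among the 11 markers, Bcr (0.89) and Scn2b (0.89). Rgs14, Rgs20 and Rgs2 also followed the striatal sum, with r 0.62, 0.60 and 0.59 (adjusted permutation p 0.0014, 0.0020 and 0.0025), rho 0.63, 0.66 and 0.54 (adjusted permutation p 0.00080, 0.00080 and 0.0079), and r 0.60, 0.56 and 0.54 without the 2 farthest libraries. Rgs4 had an r of 0.14 and a rho of 0.10 with the striatal sum, again given without a test. In hippocampus, where the striatal sum was low and narrow in range, Rgs8 had an r of 0.27 and a rho of 0.34 with it (adjusted permutation p 0.25 and 0.18), and Rgs16 an r of -0.52 and a rho of -0.54 (adjusted permutation p 0.013 and 0.011), with r -0.54 without the 2 farthest libraries.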

How the data were processed

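Messenger RNA was measured in 96 libraries of hippocampus and prefrontal cortex, from a stranded library kit per the labels' protocols. Reads were trimmed with Trimmomatic and aligned with STAR 2.6.1d to GRCm39 (mm39), per the submitters' processing notes; of the counting tool, the sources used here give no name. The authors deposited 1 table of normalised counts for 22709 genes, whose values are a signal, that is whole read counts divided by a factor per library. Dividing each column of the deposited signal by its smallest step gave whole reads for 100% of values within a tolerance of 0.01, in 75 columns with a step other than 1 and 21 with a step near 1, and the factors ran from 0.898 to 1.112.

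Groups were taken from the labels. The main test was limma 3.58.1 (R 4.3.3), with a mean-variance trend, on log2(signal + 1), fitted per tissue to 8 groups over all genes that reached a signal of 10 in 5 or more libraries, with Benjamini-Hochberg adjusted p under 0.05 as the call. Fold changes are on that scale, which understates changes of low genes. Treatment and sex comparisons weight strata equally. The tissues were compared in 1 fit of 16 groups after a common median-ratio rescaling. Relations between measures used 1e+05 permutations. Within a tissue, libraries were shuffled over all groups and group means were not removed, so these p-values mix group differences with covariation of libraries. Group means were removed only for relations between the tissues. High-share libraries were found within each tissue by splitting in 2 the share of signal on ribosomal protein and nuclear oxidative phosphorylation genes, a split by composition and not by a labelled batch.

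Alternatives were pseudocounts of 0.5 and 5, no filter, edgeR 4.0.16 and DESeq2 1.42.0 on the recovered reads, the term for or removal of high-share libraries, a replicate block and each library left out. On recovered reads edgeR called 7891 genes for the inhibitor in hippocampus and 7425 in prefrontal cortex, and DESeq2 called 8076 and 7628. Fitting scripts were tested on simulated data. No columns were identical (highest r between libraries 0.990).

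The members and lists were chosen with earlier results of these data known. All 8 members are named in every averaged comparison, other RGS genes and R7 partners where called or at the ends of the family, and up to 4 genes per other list by smallest p. Genes most like Rgs4 are the 5 with the highest r.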

Additional observations from a re-analysis of the deposited data

Results flagged for a closer look

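Within groups of 5 to 7 libraries of 1 tissue, a single library lay far from the others of its group for 9 of the 128 combinations of gene, tissue and group that were examined. Chance alone marks about 1 in 20 such groups.

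Rgs16 in hippocampus was marked 2 times, both in females. Saline inhibitor-treated female 4 had 438 signal, with the next at 258 and the lowest of its group at 164. Saline control female 1 had 286 signal, with the next at 177 and the lowest at 134.

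Saline inhibitor-treated male 5, a high-share library in both tissues, was marked for 3 genes. It was the highest of its group in hippocampus for Rgs2, with 919.8 signal (the next had 768), and for Rgs4, with 4394 signal (the next had 3772). In prefrontal cortex it was the lowest for Rgs8, with 2109.8 signal, below the next at 2728.

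Rgs8 in hippocampus was marked in MIA inhibitor-treated female 6, also a high-share library, which had the lowest signal of its group at 2827 (the next had 3098), and in MIA control female 3, the highest of its group at 3948 (the next had 3094). Rgs4 in hippocampus was lowest at 4390.4 signal in MIA control female 4, below the next at 4847. Rgs20 in prefrontal cortex was highest at 848 signal in saline control male 2, a high-share library there, above the next at 740.01.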

How the results depend on the processing

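Calls for the inhibitor depended on the high-share libraries, and the cause was not tested. With a term for them, genes called for the inhibitor were 75 in hippocampus and 48 in prefrontal cortex, and without them 9 and 59, with 0 members in each. For MIA, DESeq2 called 10 genes in hippocampus and 5 in prefrontal cortex, and the term gave 2 and 4. With the term 0 members were called in hippocampus. No count of members is given for prefrontal cortex, because Rgs4 was chosen on this difference. For sex in hippocampus DESeq2 called 81 genes with 1 member, the term gave 87 with 1 member, and leaving the libraries out gave 21. For MIA by sex in hippocampus DESeq2, and the fit without them, called 0 genes. A term for the 14 hippocampal labels used in prefrontal cortex, chosen after seeing the data, gave 3 genes for MIA, 43 with 0 members for the inhibitor and 47 for sex.

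Signs changed for differences near 0 that had not passed, and for 2 cortical inhibitor differences, Rgs14 (which had passed) and Rgs16. With the term these became 0.011 and 0.12, without the libraries 0.018 and 0.23, and with the hippocampal labels Rgs16 was 0.072. For MIA, Rgs10 in hippocampus became 0.021 with the term and 0.040 without the libraries. In prefrontal cortex Rgs10 became 0.0027 by edgeR, 0.0044 by DESeq2, 0.032 with the term, 0.031 with the hippocampal labels, 0.0082 without the libraries and 0.0016 with the replicate block. Rgs7 there became 0.0022 with the term, 0.0023 with the hippocampal labels and 2.81e-05 with the replicate block, and Rgs14 became -0.0042 without the libraries. For sex in hippocampus Rgs2 became 0.010 and Rgs10 0.048 with the term, Rgs10 0.070 and Rgs14 -0.011 without the libraries, and Rgs10 0.0050 with the replicate block. For sex in prefrontal cortex Rgs10 became 0.0061 by edgeR, 0.0026 by DESeq2, 0.052 with the term, 0.053 with the hippocampal labels, 0.040 without the libraries and 0.0010 with the replicate block. Rgs16 there became 9.74e-06 with a pseudocount of 0.5, 0.047 with the term, 0.039 with the hippocampal labels, 0.14 without the libraries and 0.016 with the replicate block. Rgs4 became 0.00039 with the term, 0.0011 with the hippocampal labels and 0.037 without the libraries.

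Leaving out 1 library at a time kept 7 members called for the inhibitor in hippocampus and 2 to 4 in prefrontal cortex, and genes called ran from 7005 to 8748 and from 6406 to 8482. Genes called for MIA in hippocampus ran from 0 to 2 (1 without MIA control male 5, 2 without MIA inhibitor-treated female 4 or saline control female 2). The cortical call of Rgs14 was lost, at -0.10 to -0.11, without MIA control female 4, MIA control male 3, 4 or 6, MIA inhibitor-treated female 1 or 4, saline control female 4, 5 or 6, saline control male 1 or 4, saline inhibitor-treated female 5, or saline inhibitor-treated male 4 or 6. Cortical Rgs2 passed without MIA control male 2 or 5, MIA inhibitor-treated female 6 or saline control female 3. Differences that changed sign ran from -0.038 to 0.0083 for Rgs10 and -0.011 to 0.019 for Rgs14 by sex in hippocampus, and from -0.039 to 0.015 for Rgs10 and -0.078 to 0.012 for Rgs16 by MIA there. In prefrontal cortex they ran from -0.029 to 0.020 for Rgs10 and -0.0079 to 0.0082 for Rgs7 by MIA, and from -0.031 to 0.015 for Rgs10, -0.034 to 0.016 for Rgs16 and -0.016 to 0.0044 for Rgs4 by sex.

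Label numbers did not pair libraries within a tissue (mean r of their deviations 0.0063 in hippocampus and -0.0017 in prefrontal cortex). The replicate block gave 7880 genes and 7 members for the inhibitor in hippocampus. Between tissues, libraries of the same label deviated together in 42 of 48 pairs (r over 0.1, mean 0.285), and 38 of 48 correlated best with their own label, which is a hint from the data and not the design; with the replicate block 14923 genes and 7 members differed. For the tissue difference in the inhibitor effect the replicate block called 10 genes and no member, against 0 genes without it, and for saline control libraries alone 10295 genes differed between tissues with it, against 8297 without. No call of a member was changed by the block, by no filter or by a pseudocount of 5 in the comparisons run under them. The unknown litters, the uneven spread of the high-share libraries over the inhibitor groups, and the lack of an independent set of libraries limit every comparison.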
